A study of Mus musculus with 35 samples.

Results

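Srm, Sms, Odc1, Amd1, Azin1, Oaz1, Oaz2, Sat1 and Smox were followed as the genes that make polyamines, limit their making and break them down. These 9 genes were listed by name with earlier results of these data known, and were found by their Ensembl identifiers among the 48709 genes counted in each library. All 9 passed the filter on low counts that left 13819 genes for testing, and each held at least 59 counts in every library. The cells were OT-I CTLs, effector CD8+ T cells that were expanded in culture from mice with a transgenic T-cell receptor against ovalbumin. A group of 5 libraries was made from the cells at the start of the experiment (0 h). The other 6 groups, each of 5 libraries, were made after 24 h in medium of pH 7.4, pH 7 or pH 6.6, at each pH both without IL-2 and with murine IL-2 at 200 IU/mL. All groups shared the same prior expansion with IL-2, so cells without IL-2 had been deprived of it for 24 h. The labels number the biological replicates from 1 to 5 in every group but do not say which animal or culture a number stands for, so p-values measure the spread between these samples only. The comparisons asked how acidity altered the cells' transcripts and their response to IL-2.

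Polyamines (putrescine, spermidine and spermine) are small positively charged molecules that bind nucleic acids and that dividing T cells need in quantity. Ornithine decarboxylase (Odc1) makes putrescine from ornithine. Spermidine synthase (Srm) and spermine synthase (Sms) then extend it with a group taken from S-adenosylmethionine, which S-adenosylmethionine decarboxylase (Amd1) prepares. Antizymes (Oaz1, Oaz2) bind ornithine decarboxylase and send it to the proteasome, and the antizyme inhibitor (Azin1) holds antizymes back. Spermidine/spermine acetyltransferase (Sat1) marks polyamines for export or oxidation, and spermine oxidase (Smox) turns spermine back into spermidine. Odc1 is a known target of the transcription factor c-Myc.

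Libraries held from 16721319 to 34033340 reads counted on genes. Values are given as CPM, counts scaled to a common library size with edgeR's TMM factors. They are shares of the RNA sequenced, so fewer cells of a type and less RNA per cell cannot be told apart. All 6 CD8 T-cell markers (Cd3d, Cd3e, Cd3g, Cd8a, Cd8b1, Trac) were at 211.5 CPM or more in every library. Of 22 markers of other blood cells, 14 stayed under 1 CPM in every library and 3 of these (Ms4a1, Siglech, Hbb-bs) were at 0 throughout. The 8 that reached 1 CPM were Cd4, Foxp3, Cd79b, Itgam, Cd68, Flt3, Ly6g and Klrb1c. Klrb1c, a marker of NK cells, was the highest of them, and its sum with Ncr1 ranged from 8.27 CPM to 94.96 CPM over all libraries. Ncr1, the other NK marker listed, stayed under 1 CPM in every library, so this sum was mostly Klrb1c. Reads that aligned to several places are not in the counts. Of the whole tally, with or without a gene, they made up 32.8% to 37.1% at pH 7.4 without IL-2 and 39.3% to 48.3% at 0 h. The other groups lay between 32.8% and 40.6%. Whether such a read was tallied once or once per place is not stated. Leaving these reads out touches Amd1 most, because only 21.9% of its 50-base windows occur in no other gene's transcripts. Its copies Amd2, Amd-ps3, Amd-ps4 and Amd-ps1 held at most 0.243 CPM in any library. The share of such windows was 75.7% for Odc1, 79.0% for Oaz1, 82.5% for Sms and above 92% for the other members.

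The antizymes carry a short coding stretch on which their synthesis depends. Ribosomes meet a stop codon (TGA) there and pass it by slipping forward when polyamines are plentiful. The stretch is shown because it is the sequence by which polyamines act on 2 of the members. It was read from the GENCODE M21 transcripts, lies within a single exon of each gene on the plus strand of GRCm38, and has the slip site with its stop codon in capitals. The Oaz1 stretch is chr10:80828265-80828324 and the Oaz2 stretch is chr9:65686242-65686301.
Oaz1: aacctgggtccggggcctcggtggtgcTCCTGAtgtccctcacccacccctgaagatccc
Oaz2: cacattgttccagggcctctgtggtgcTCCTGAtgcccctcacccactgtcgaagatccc
Over these 60 bases, 49 were identical between Oaz1 and Oaz2. The slip acts on protein, which these libraries did not measure.

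Per kb of exon, Odc1 had the highest mean level over all libraries, 82.3 CPM per kb. Sat1 came next at 44.9 CPM per kb, followed by Srm at 32.2, Oaz1 at 29.3 and Azin1 at 22.4. The remaining members lay lower, with Oaz2 at 7.53, Amd1 at 7.32, Smox at 7.14 and Sms at 4.52 CPM per kb. Reads shared with its copies are missing from the Amd1 value, so its place in this order is uncertain. Srm varied most among the 7 groups, with a highest group mean 52.6-fold above the lowest. Smox varied 9.79-fold, and Azin1, Amd1, Sat1 and Odc1 between 4.08-fold and 4.80-fold. Sms, Oaz2 and Oaz1 stayed within 1.91-fold. The synthases exchanged places with the conditions: per kb, Srm stood at 93.8 CPM against 6.09 for Sms at pH 7.4 with IL-2, but at 2.49 against 3.61 at pH 7.4 without IL-2. At pH 6.6 the values were 8.19 for Srm and 3.86 for Sms with IL-2, and 1.78 and 3.40 without it.

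**Figure D1:**
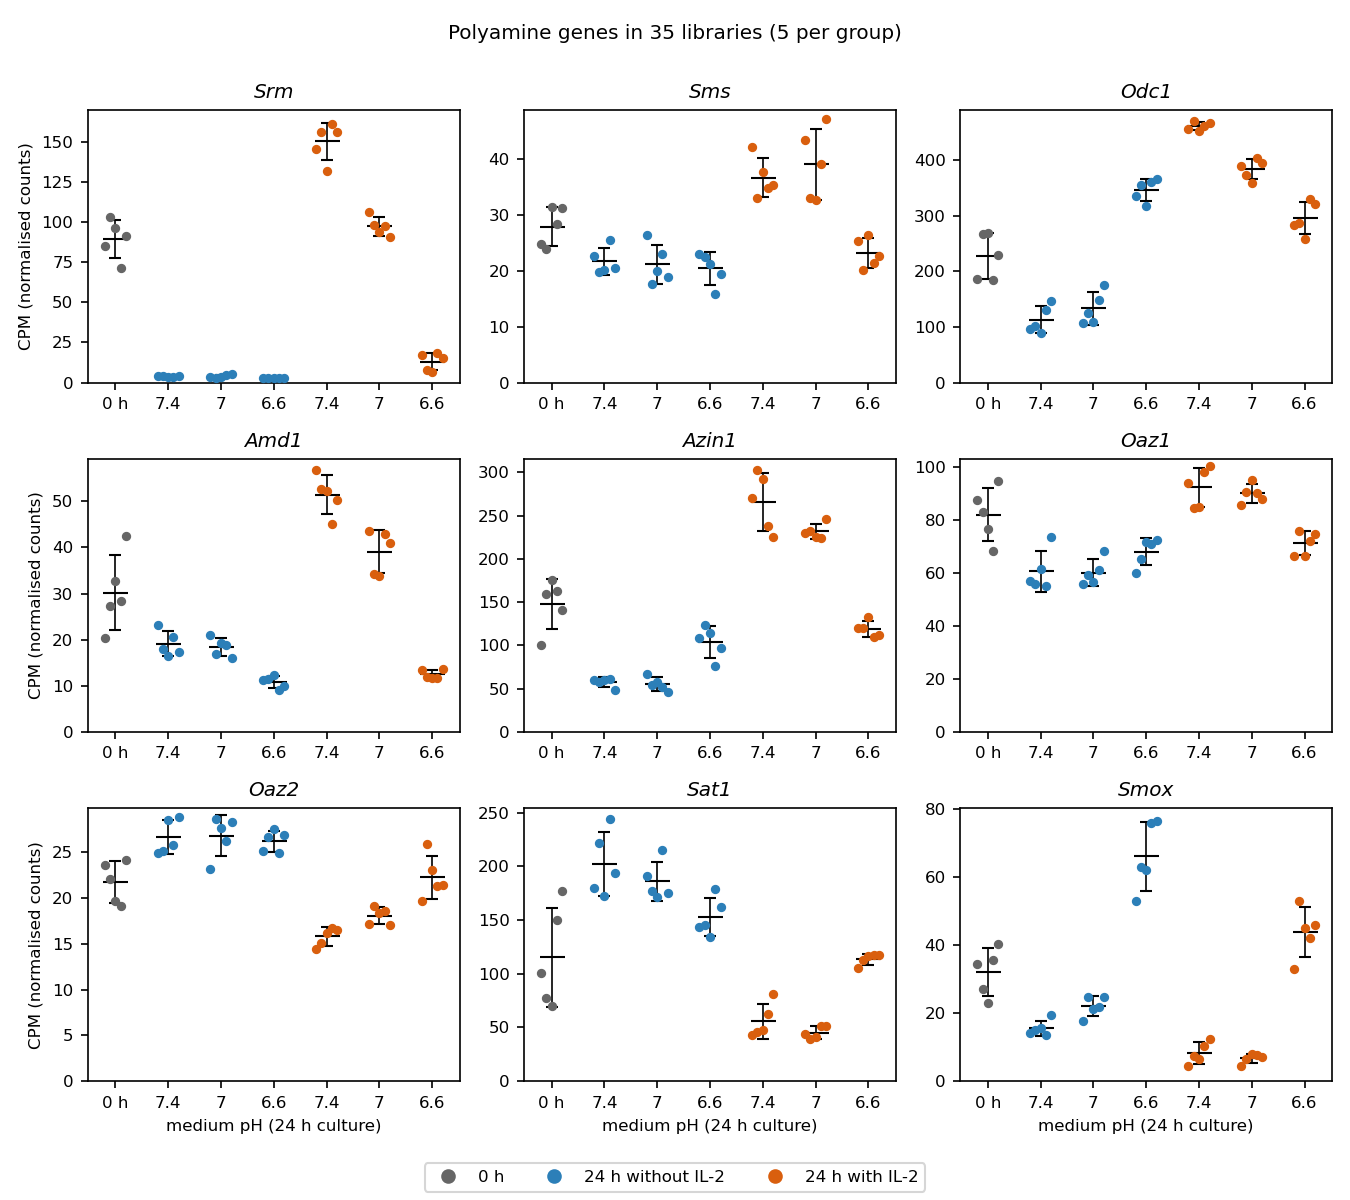
Level of each member in CPM (vertical axis, from 0) in 7 groups, with a point per library, a bar at the mean and whiskers of 1 SD (n = 5). Grey marks 0 h, blue 24 h without IL-2 and orange 24 h with IL-2, by pH. Srm lies at 131.9 CPM or more at pH 7.4 with IL-2 and at 5.29 CPM or less in every library without IL-2.

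At pH 6.6 with IL-2, transcripts of the members that make polyamines were lower than at pH 7.4 with IL-2. Those of the breakdown enzymes Sat1 and Smox were higher. All 9 members passed the threshold of an adjusted p of 0.05 in edgeR's quasi-likelihood test, 6 of them lower and 3 higher, and in all 9 the libraries of the pH values did not overlap. This has to be read against the whole transcriptome, in which 76.3% of the genes tested passed, 35.4% higher and 40.9% lower, and 59.2% had groups that did not overlap. The members' median log2 fold change was -0.65, beside -0.07 over all genes tested. The libraries also differed in other measures. Reads matched to no counted feature made up 3.91% to 5.18% of the tally at pH 7.4 with IL-2 and 7.34% to 8.83% at pH 6.6 with IL-2. The NK marker sum, mostly Klrb1c, was at 42.98 to 45.8 CPM and 19.3 to 33.2 CPM. The part of either in the members' differences was not tested.

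Srm moved most. Its level in replicates 1 to 5 was 145.4, 155.8, 131.9, 161.0 and 156.0 CPM at pH 7.4, and 17.1, 7.96, 6.42, 18.4 and 15.6 CPM at pH 6.6. Every acid library lay far below every library at pH 7.4, and replicates 2 and 3 were the lowest. Spermidine synthase transcript was 11.7-fold lower, a log2 fold change of -3.55 (SE 0.17, edgeR quasi-likelihood test, adjusted p = 3.88e-18). Amd1 was at 56.7, 52.7, 52.3, 45.2 and 50.3 CPM at pH 7.4, and at 13.5, 11.8, 11.7, 11.7 and 13.6 CPM at pH 6.6. Its log2 fold change was -2.05 (SE 0.13, adjusted p = 2.54e-15). The groups were widely separated, although the share of reads counted on Amd1 is uncertain and its part in this difference was not tested. The spread in Amd1 was small at pH 6.6, with a mean of 12.5 ± 1.00 CPM (SD, n = 5).

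Odc1, whose product makes the first polyamine, fell less. It was at 455.3, 471.0, 452.5, 460.9 and 467.7 CPM at pH 7.4 with IL-2, and at 283.6, 286.4, 259.0, 330.3 and 321.4 CPM at pH 6.6 with IL-2. The log2 fold change was -0.65 (SE 0.11, adjusted p = 2.35e-06), a 1.57-fold lower level. Sms, which makes spermine, fell by a like amount, from 36.6 ± 3.49 to 23.2 ± 2.66 CPM (SD, n = 5), and its log2 fold change was -0.66 (SE 0.11, adjusted p = 2.10e-06). The log2 fold changes of both genes were smaller in size than that of Srm, the synthase that acts between them.

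Among the regulators of ornithine decarboxylase, Azin1 went from 270.6, 302.2, 292.0, 237.8 and 225.0 CPM at pH 7.4 to 120.2, 119.6, 132.6, 109.2 and 112.4 CPM at pH 6.6 with IL-2. The groups did not overlap, and the log2 fold change was -1.16 (SE 0.11, adjusted p = 2.91e-11). Oaz1 fell by 0.38 on the log2 scale (SE 0.07, adjusted p = 3.09e-05), from 92.3 ± 7.42 to 71.1 ± 4.52 CPM. Oaz2 rose from 15.8 ± 1.00 to 22.3 ± 2.33 CPM (SD, n = 5), a log2 fold change of 0.49 (SE 0.08, adjusted p = 7.92e-07). The antizyme genes therefore moved in opposite directions, and Oaz1 remained the more abundant per kb, at 27.8 CPM per kb against 7.45 for Oaz2 at pH 6.6 with IL-2.

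Both breakdown genes among the members rose with acidity in the presence of IL-2, whereas Paox, an oxidase of the neighbouring list, did not pass (log2 fold change -0.16). Smox was at 4.34, 7.26, 6.49, 10.4 and 12.5 CPM at pH 7.4, and at 32.99, 52.93, 45.22, 42.23 and 46.10 CPM at pH 6.6. This was a 5.51-fold higher level with no overlap, a log2 fold change of 2.46 (SE 0.15, adjusted p = 6.30e-16). Sat1 was at 42.9, 45.3, 47.2, 62.1 and 81.5 CPM at pH 7.4, and at 105.0, 112.6, 116.3, 117.1 and 117.2 CPM at pH 6.6, where the libraries lay close together. Its log2 fold change was 1.06 (SE 0.13, adjusted p = 1.47e-08). The summed level of 5 myeloid markers was also higher at pH 6.6, at 16.5 to 30.9 CPM against 5.11 to 10.8 CPM at pH 7.4 with IL-2. Of these markers Lyz2, Csf1r and Adgre1 stayed under 1 CPM in every library while Itgam and Cd68 reached it, and their part in the breakdown genes' rise was not tested.

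**Figure D2:**
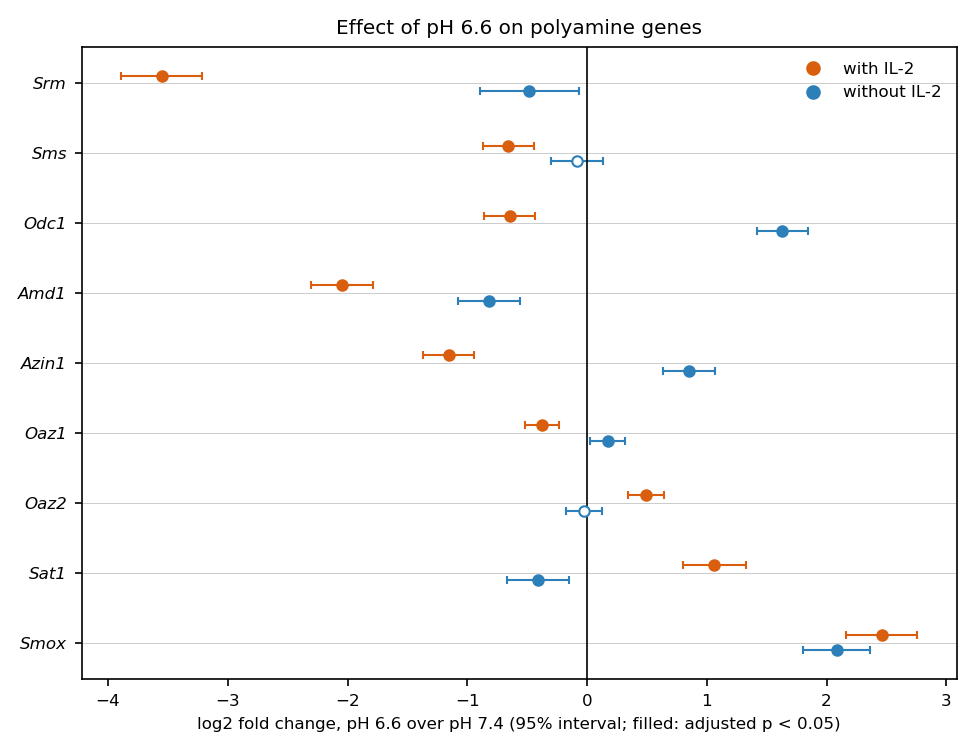
Log2 fold change of each member at pH 6.6 over pH 7.4 (horizontal axis) with IL-2 (orange) and without it (blue), with 95% intervals from the model's SE and filled points for an adjusted p under 0.05. Odc1 lies at -0.65 with IL-2 and at 1.63 without it, whereas Smox is above 2 in both.

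Milder acidity moved fewer members. With IL-2 present, 2 of the 9 passed the threshold at pH 7 against pH 7.4, both lower, beside 9.83% of all genes tested that were lower. Srm was at 106.1, 98.1, 93.9, 97.2 and 90.4 CPM at pH 7, below every library at pH 7.4, with a log2 fold change of -0.62 (SE 0.15, edgeR adjusted p = 0.00421). Amd1 was at 33.8 to 43.5 CPM at pH 7, and its log2 fold change was -0.40 (SE 0.12, adjusted p = 0.0233). The Amd1 call was lost without replicate 2 (adjusted p = 0.144) and without replicate 3 (adjusted p = 0.138). Odc1 did not pass at -0.26 (SE 0.11, adjusted p = 0.0807), although its libraries at pH 7, from 359.5 to 404.2 CPM, lay below all those at pH 7.4. In 4 of the 9 members (Srm, Amd1, Odc1 and Oaz2) the groups did not overlap, beside 13.2% of all genes tested. Sms, Azin1, Oaz1, Oaz2, Sat1 and Smox had log2 fold changes between -0.28 and 0.19 and adjusted p-values from 0.0750 to 0.794.

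From pH 7 to pH 6.6 with IL-2, all 9 members passed, again 6 lower and 3 higher, against 72.4% of all genes tested. The log2 fold changes were -2.93 for Srm, -1.65 for Amd1, -0.97 for Azin1 and -0.75 for Sms. They were -0.38 for Odc1, -0.34 for Oaz1, 0.30 for Oaz2, 1.35 for Sat1 and 2.70 for Smox. Beside this, the steps from pH 7.4 to pH 7 were -0.62 for Srm and -0.24 for Smox. For Odc1 the steps were of nearer size, -0.26 from pH 7.4 to pH 7 and -0.38 from pH 7 to pH 6.6. Both steps share the pH 7 libraries.

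Without IL-2 the members parted in another way. At pH 6.6 against pH 7.4, 7 of the 9 passed, 4 higher and 3 lower, where 67.0% of all genes tested passed. The median log2 fold change of the members was -0.02, beside -0.03 for all genes, and 5 members had groups that did not overlap, as had 47.4% of all genes tested. The NK marker sum, mostly Klrb1c, was lower at pH 6.6 here too, at 8.27 to 12.1 CPM against 20.6 to 40.8 CPM. The sum of 3 dendritic cell markers was at 0.0818 to 0.757 CPM against 0.984 to 6.40 CPM. Of these markers Siglech was at 0 and Xcr1 under 1 CPM in every library, and only Flt3 reached 1 CPM. The part of either sum was not tested. Odc1 was at 95.9, 102.1, 89.9, 131.1 and 146.4 CPM at pH 7.4 without IL-2, and at 335.8, 355.6, 317.9, 359.8 and 365.4 CPM at pH 6.6. This was a 3.10-fold higher level with a wide gap between the groups, a log2 fold change of 1.63 (SE 0.11, edgeR adjusted p = 3.70e-14). Azin1 rose with it, from 60.0, 57.4, 60.3, 61.6 and 47.9 CPM to 108.3, 123.9, 114.5, 75.8 and 97.1 CPM, a log2 fold change of 0.85 (SE 0.11, adjusted p = 5.45e-08). Replicate 4 was the lowest of the acid libraries for Azin1 but still lay above all those at pH 7.4.

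Smox rose without IL-2 too. It was at 13.5 to 19.4 CPM at pH 7.4, with replicate 5 the highest, and at 52.9, 63.0, 62.2, 76.0 and 76.7 CPM at pH 6.6, the highest levels of any group. The log2 fold change was 2.08 (SE 0.14, adjusted p = 6.26e-14), with a myeloid marker sum of 10.3 to 19.3 CPM at pH 7.4 and 17.76 to 32.98 CPM at pH 6.6 whose part was not tested. Amd1 fell without IL-2 as well, from 19.1 ± 2.74 to 10.8 ± 1.33 CPM (SD, n = 5), and its log2 fold change was -0.82 (SE 0.13, adjusted p = 2.64e-06). Sat1 went down here, from 202.5 ± 29.9 to 152.8 ± 17.8 CPM (log2 fold change -0.41, SE 0.13, adjusted p = 0.00686), with groups that overlapped.

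The remaining calls at pH 6.6 without IL-2 were weak. Srm, already at 3.60 to 4.43 CPM at pH 7.4, was at 2.68 to 3.07 CPM at pH 6.6, a log2 fold change of -0.48 (SE 0.21, adjusted p = 0.0439). That call was lost with RLE scaling (adjusted p = 0.0630), with the looser filter (adjusted p = 0.102) and without replicate 1, 3 or 5 (adjusted p = 0.110, 0.0509 and 0.120). Oaz1 changed by 0.17 (SE 0.07, adjusted p = 0.0398), a call kept in 3 of 11 alternatives (all those tried other than the stricter fold). It was lost without the replicate block (adjusted p = 0.0785), with the looser and stricter filters (0.126 and 0.0562), with only the groups compared (0.0624) and without replicate 1, 2, 3 or 4 (adjusted p from 0.0673 to 0.192). Sms had a log2 fold change of -0.08 (SE 0.11, adjusted p = 0.512) and Oaz2 of -0.02 (SE 0.08, adjusted p = 0.788). The 95% interval was -0.30 to 0.13 for Sms and -0.17 to 0.12 for Oaz2.

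Whether the effect of pH 6.6 differed with IL-2 was tested by the interaction contrast of the same edgeR model, in which 8 of 9 members and 67.0% of all genes tested passed. For Srm the effect was lower by 3.07 on the log2 scale with IL-2 than without it, that is, a difference of -3.07 (SE 0.27, adjusted p = 1.35e-11). The next in size were Odc1 at -2.28 (SE 0.15, adjusted p = 1.79e-14) and Azin1 at -2.00 (SE 0.16, adjusted p = 5.40e-13). These genes of the decarboxylase and its protector fell in acid with IL-2 and rose in acid without it. Oaz1 had a difference of -0.55 (SE 0.10, adjusted p = 2.79e-05), although its own change without IL-2 was the weak call given above. Sat1 went the other way, with a difference of 1.47 (SE 0.19, adjusted p = 2.98e-08). Amd1 differed by -1.23, Sms by -0.57 and Oaz2 by 0.52. The Sms call was lost without replicate 2, at -0.38 (adjusted p = 0.0646). Smox was the member that did not pass, at 0.38 (SE 0.20, adjusted p = 0.0996, 95% interval -0.02 to 0.78), and without replicate 4 it did, at 0.59 (adjusted p = 0.0289).

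At pH 7 without IL-2 none of the 9 members passed edgeR's threshold, where 1.68% of all genes tested did. At an unadjusted p under 0.05 there were 2, Odc1 and Smox, and DESeq2 called 1, Smox. No share of all genes under these other rules is set beside them, so these counts are no result about the members. Smox was at 17.8, 24.8, 21.2, 21.8 and 24.6 CPM at pH 7, beside 13.5 to 19.4 CPM at pH 7.4, and was higher in 5 of 5 same-numbered pairs. Its log2 fold change was 0.51 (SE 0.14, edgeR adjusted p = 0.0651, DESeq2 adjusted p = 0.0372). Without replicate 1 the edgeR adjusted p was 0.0293, and with only the groups compared it was 0.000341. Odc1 was likewise higher in 5 of 5 pairs, with a log2 fold change of 0.24 (SE 0.11, adjusted p = 0.516, and 0.00311 with only the groups compared), and every other member lay between -0.12 and 0.01.

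IL-2 moved all 9 members at pH 7.4, 6 up and 3 down, where 80.4% of all genes tested passed. Srm went from 4.43, 3.97, 3.60, 3.63 and 4.32 CPM without IL-2 to the levels above 130 CPM given for pH 7.4 with IL-2, a 37.5-fold difference (log2 5.23, SE 0.19, edgeR adjusted p = 1.19e-21). The log2 fold changes of the other synthesis genes were 2.05 for Odc1 (SE 0.11), 1.43 for Amd1 (SE 0.13) and 0.75 for Sms (SE 0.11). Azin1 rose by 2.20 (SE 0.11) and Oaz1 by 0.61 (SE 0.07). Oaz2 differed by -0.75 (SE 0.08), Sat1 by -1.89 (SE 0.14) and Smox by -0.96 (SE 0.15). The largest adjusted p among the 9 was 7.45e-07, for Smox. With IL-2, genes of synthesis stood higher and those of breakdown lower, and the minor antizyme Oaz2 stood with the latter.

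At pH 7 the response to IL-2 had the same direction in every member, and all 9 passed against 77.2% of all genes tested. Srm differed by 4.65 (SE 0.19), Azin1 by 2.07, Odc1 by 1.54, Amd1 by 1.08, Sms by 0.89 and Oaz1 by 0.59 on the log2 scale. Sat1 differed by -2.05, Smox by -1.71 and Oaz2 by -0.57. The Smox difference was -1.71 at pH 7 beside -0.96 at pH 7.4, and whether these differ was not tested.

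At pH 6.6, 4 of 9 members passed for IL-2, 1 higher and 3 lower, where 23.7% of all genes tested passed. Srm kept a clear response, from 2.74, 2.91, 2.68, 3.07 and 2.87 CPM without IL-2 to the acid levels of 6.42 CPM and above given earlier, a log2 fold change of 2.16 (SE 0.19, edgeR adjusted p = 5.83e-10). The groups did not overlap, but Srm with IL-2 at pH 6.6 remained under every library of 0 h, which began at 71.3 CPM. Smox was lower with IL-2, at a log2 fold change of -0.58 (SE 0.14, adjusted p = 0.00186). Sat1 at -0.41 (adjusted p = 0.0206) and Oaz2 at -0.24 (adjusted p = 0.0222) passed, but Sat1 was lost without replicate 1, 2 or 4 (adjusted p from 0.0603 to 0.127) without the replicate block (0.0920) and with the looser filter (0.0538), and Oaz2 without replicate 1, 3, 4 or 5 (adjusted p from 0.0666 to 0.146) and with the looser filter (0.105). Odc1 was at -0.23 (SE 0.11, 95% interval -0.44 to -0.02, adjusted p = 0.115). Azin1, Amd1, Sms and Oaz1 lay between 0.06 and 0.20, with adjusted p-values from 0.191 to 0.570. A fit of only the groups compared called 8 of the 9, beside 5369 of the 12514 genes tested in that fit.

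**Figure D3:**
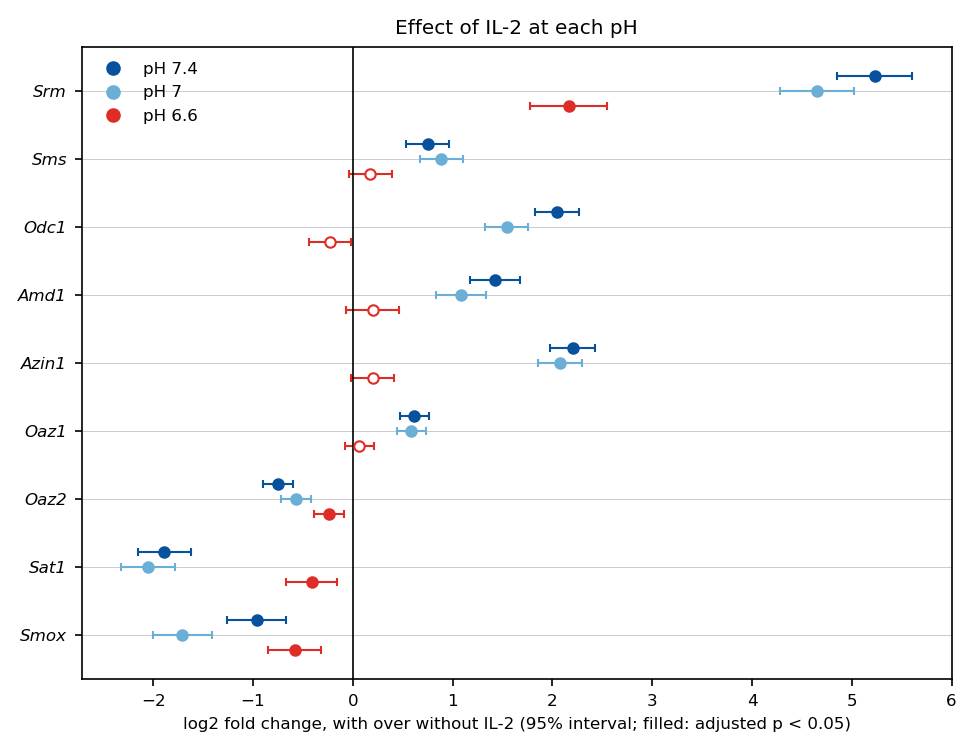
Log2 fold change of each member with IL-2 over without IL-2 (horizontal axis) at pH 7.4 (dark blue), pH 7 (light blue) and pH 6.6 (red), with 95% intervals and filled points for an adjusted p under 0.05. At pH 6.6 Srm is at 2.16 and every other member lies between -0.58 and 0.20.

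Against the cells at 0 h, culture at pH 7.4 with IL-2 moved all 9 members (59.9% of all genes tested passed), with 6 higher and 3 lower. Odc1 was 2.03-fold higher, and Smox fell from 34.59, 27.03, 22.98, 35.69 and 40.35 CPM at 0 h, a log2 fold change of -2.01 (SE 0.15, edgeR adjusted p = 4.71e-13). The Oaz1 call, at 0.17 (adjusted p = 0.0426), was kept in 3 of 11 alternatives, with adjusted p-values up to 0.333. Culture at pH 7.4 without IL-2 also moved all 9 (75.2% of all genes), with 7 lower and 2, Sat1 and Oaz2, higher. Srm was 22.6-fold lower than at 0 h there, while Odc1 differed by -1.03, Azin1 by -1.36 and Smox by -1.05 on the log2 scale. Smox thus fell from 0 h at pH 7.4 both with and without IL-2.

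At pH 6.6 the comparison with 0 h gave another picture for Odc1 and Smox. With IL-2, 7 of 9 passed (68.5% of all genes), and Odc1 (0.37, adjusted p = 0.00270) and Smox (0.45, adjusted p = 0.00502) were higher. Srm (-2.82), Amd1 (-1.28), Azin1 (-0.32), Sms (-0.27) and Oaz1 (-0.20) were lower, and of 11 alternatives the call was kept in 7 for Azin1, 4 for Sms and 3 for Oaz1 (highest adjusted p 0.126, 0.152 and 0.307). Oaz2 at 0.03 and Sat1 at 0.04 did not pass. Without IL-2 all 9 passed (75.1% of all genes), with Odc1 at 0.61, Smox at 1.03, Sat1 at 0.45 and Oaz2 at 0.27 higher. Srm was at -4.98, Amd1 at -1.48, Azin1 at -0.52, Sms at -0.45 and Oaz1 at -0.27, the last of which was lost without replicate 1 (adjusted p = 0.0539) and with only the groups compared (0.135). The 4 comparisons share the 0 h libraries, in which Sat1 ranged from 70.4 to 177.2 CPM.

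The 7 groups were also put in order of level for each member. Of the 6 steps between neighbours in that order, 4 passed for Amd1 and Smox, 3 for Srm, Azin1 and Sat1, and 2 for Sms, Odc1, Oaz1 and Oaz2. The order was set from the same values, so these counts are a description. Srm, Odc1, Amd1, Azin1 and Oaz1 were highest at pH 7.4 with IL-2. Sms was highest at pH 7 with IL-2, at 39.0 CPM against 36.6 CPM at pH 7.4 (adjusted p = 0.597). For Odc1, the groups at pH 6.6 without IL-2 (346.9 CPM) and with IL-2 (296.1 CPM) were neighbours that did not differ past the threshold (adjusted p = 0.115). The edgeR fit of only the groups compared did call this difference (adjusted p = 0.00277). Both groups lay above 0 h at 227.1 CPM. Sat1 was highest at pH 7.4 without IL-2 (202.5 ± 29.9 CPM) and lowest at pH 7 with IL-2 (45.2 ± 5.66 CPM). Smox was highest at pH 6.6 without IL-2, 66.1 ± 10.1 CPM, and the next group, pH 6.6 with IL-2 at 43.9 ± 7.25 CPM, was lower past the threshold (adjusted p = 0.00186).

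Promoter windows of 300 bases, from 250 bases before to 50 after each start, were matched by symbol in RefSeq's table (GRCm38.p6) for 7 of the 9 members, in 8 windows. Srm and Azin1 had no window there, so their promoters were not searched. Stretches were taken from Odc1, Amd1, Sms and Sat1, whose log2 fold changes at pH 6.6 against pH 7.4 were not alike. With IL-2 these were -0.65 for Odc1, -2.05 for Amd1, -0.66 for Sms and 1.06 for Sat1. Without IL-2 they were 1.63 for Odc1, -0.82 for Amd1 and -0.41 for Sat1, and Sms did not pass (-0.08). Odc1 and Sat1 thus changed direction, whereas Amd1 was lower in both. The stretches end before the first annotated base of each gene. They are Odc1 at chr12:17544623-17544793 on the plus strand, and on the minus strand Amd1 at chr10:40302189-40302438, Sms at chrX:157492288-157492537 and Sat1 at chrX:155216450-155216699. Capitals mark the E-box letters CACGTG, which factors such as c-Myc can bind, and the GC-box letters GGGCGG, searched on both strands. The searched motifs did not overlap each other in the stretches shown.
Odc1: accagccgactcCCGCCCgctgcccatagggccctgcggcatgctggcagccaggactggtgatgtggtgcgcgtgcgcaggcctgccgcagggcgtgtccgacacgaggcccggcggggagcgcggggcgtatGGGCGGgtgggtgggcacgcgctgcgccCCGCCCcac
Amd1: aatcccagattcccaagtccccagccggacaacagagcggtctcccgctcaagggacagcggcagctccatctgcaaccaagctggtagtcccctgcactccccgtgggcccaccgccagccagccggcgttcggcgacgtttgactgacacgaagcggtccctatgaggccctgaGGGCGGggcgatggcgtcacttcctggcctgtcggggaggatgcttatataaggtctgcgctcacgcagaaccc
Sms: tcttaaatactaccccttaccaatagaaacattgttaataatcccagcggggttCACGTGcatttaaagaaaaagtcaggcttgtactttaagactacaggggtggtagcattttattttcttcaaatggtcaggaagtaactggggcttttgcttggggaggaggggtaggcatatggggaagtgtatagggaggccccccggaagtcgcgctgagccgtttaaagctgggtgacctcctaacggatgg
Sat1: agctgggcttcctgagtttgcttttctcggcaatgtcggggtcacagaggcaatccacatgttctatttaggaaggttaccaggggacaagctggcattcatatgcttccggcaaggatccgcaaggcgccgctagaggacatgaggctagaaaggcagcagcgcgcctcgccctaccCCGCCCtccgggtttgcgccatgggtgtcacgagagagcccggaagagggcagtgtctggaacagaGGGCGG
CACGTG occurred in 7.15% of all 32851 windows and, among the 7 members with a window, in Sms. GGGCGG occurred in 35.7% of all windows and in those of 6 members, which were Amd1, Oaz2, Odc1, Sat1, Smox and Sms. The letters TGACGTCA (1.79% of windows), TGATGNAA (3.97%) and TTCNNNGAA (8.30%) occurred in none of the members' windows. A match, or the lack of one, is a description of letters and says nothing about binding in these cells. Sequence outside the windows, such as further into a gene, was not searched.

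The pathways next to the members were followed with a list of 26 genes, of which 18 were expressed enough to be tested. Arg1, Arg2, Agmat, Oaz3, Azin2, Sat2, Satl1 and Slc18b1 were not. At pH 6.6 against pH 7.4 with IL-2, 12 of the 18 were lower and 2 were higher, beside 76.3% of all genes that passed in either direction. Their median log2 fold change was -0.80. In ornithine supply, all 3 genes tested were lower. Slc7a1, a transporter of arginine and ornithine, went from 168.4 to 229.0 CPM down to 27.3 to 56.7 CPM (log2 fold change -2.33, SE 0.17). Aldh18a1 was at -1.27 and Oat at -1.09. Aldh18a1 encodes P5CS, which the study describes as an enzyme that helps turn glutamate into proline. The study found more proline in the cells at low pH, so the name ornithine supply covers only part of this gene's role. The hypusine genes were all lower. Eif5a, the translation factor modified with a group from spermidine, went from 1409 to 1654 CPM down to 301.0 to 433.1 CPM (-2.03, SE 0.08, edgeR adjusted p = 2.51e-20). Eif5a2 was at -1.10, Dohh at -0.70 and Dhps at -0.56, the latter 2 encoding the enzymes of that modification.

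Methionine salvage returns the by-product that Srm and Sms leave. Its first enzyme, Mtap, differed by -2.12 (SE 0.10) at pH 6.6 with IL-2, Enoph1 by -1.90 and Apip by -0.89, while Mri1 (0.11) and Adi1 did not pass. Mat2a, which makes S-adenosylmethionine, was at -1.39, and its partner Mat2b rose by 0.86. Of the transport genes, Atp13a2, a lysosomal polyamine exporter, rose by 0.74 (SE 0.19). Atp13a3 was at -0.42, a call lost without replicate 1, 2 or 4 (adjusted p from 0.0501 to 0.147), and Slc3a2 at 0.05 did not pass. Paox, a peroxisomal polyamine oxidase, was at -0.16 and did not pass either.

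Without IL-2, pH 6.6 raised 7 of the 18 and lowered 7 relative to pH 7.4, with a median of -0.08, beside 67.0% of all genes that passed. Slc3a2 rose most, from 75.2 to 96.8 CPM up to 262.8 to 278.2 CPM (log2 fold change 1.65, SE 0.09, edgeR adjusted p = 9.44e-16). Mri1 (0.64), Oat (0.61), Eif5a (0.48), Atp13a3 (0.43), Dhps (0.38) and Mat2b (0.19) were also higher. Of 11 alternatives the Mat2b call was kept in 3 and that of Atp13a3 in 9, and both were lost without replicate 2 (adjusted p = 0.306 and 0.114). Eif5a2 was at -1.66, Atp13a2 at -0.73, Apip at -0.49, Enoph1 at -0.42, Mtap at -0.40, Paox at -0.34 and Aldh18a1 at -0.23, the last lost without replicate 3 (adjusted p = 0.0577). Slc7a1 (0.05), Dohh (0.13), Mat2a (-0.21) and Adi1 (-0.21) did not pass. Eif5a, Oat and Dhps thus had the same opposite directions with and without IL-2 as Odc1 and Azin1, with interaction values of -2.51, -1.70 and -0.94. Atp13a3 was likewise lower with IL-2 and higher without it, but both calls were lost in some alternatives.

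**Figure D4:**
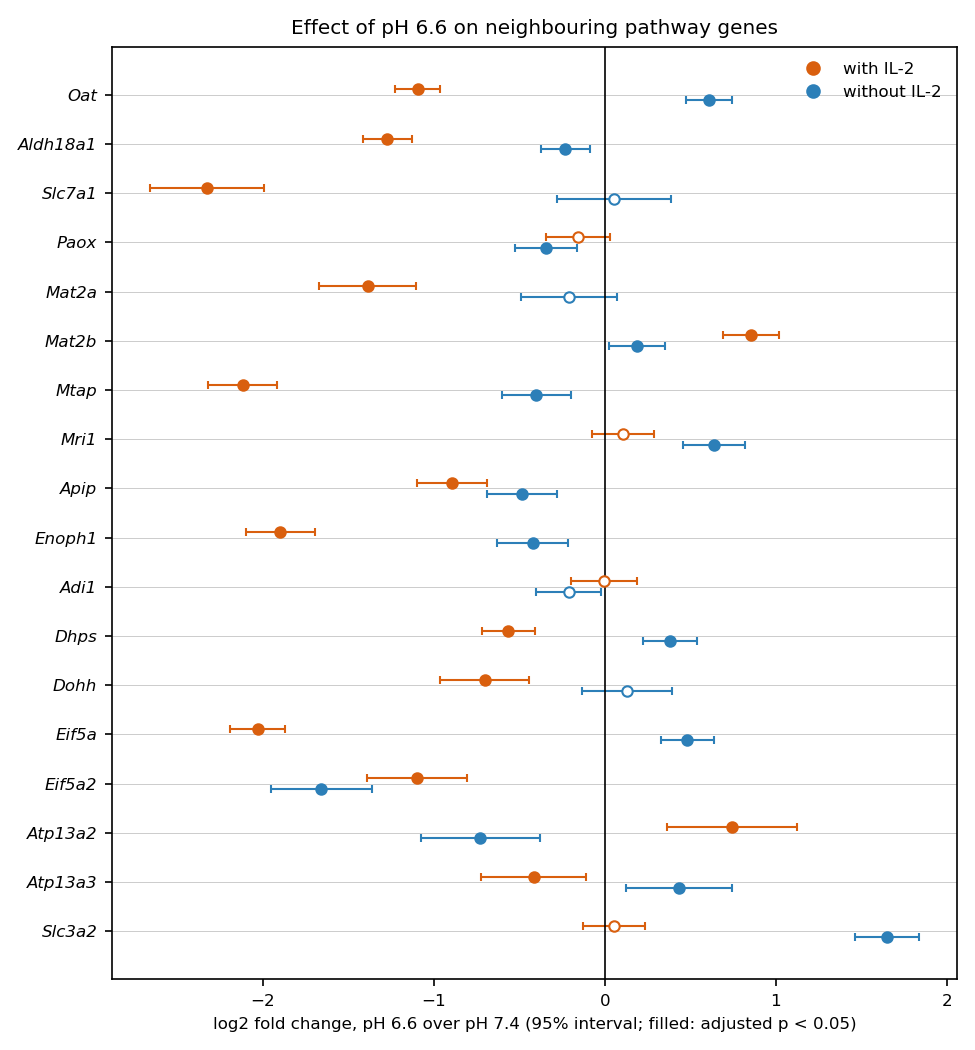
Log2 fold change at pH 6.6 over pH 7.4 (horizontal axis) for the 18 tested genes of the neighbouring pathways, with IL-2 (orange) and without it (blue), with 95% intervals and filled points for an adjusted p under 0.05. Slc7a1 (-2.33), Mtap (-2.12) and Eif5a (-2.03) are lowest with IL-2, and Slc3a2 (1.65) is highest without it.

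With IL-2 at pH 7.4, 13 of the 18 were higher than without it and 4 were lower, beside 80.4% of all genes that passed. Slc7a1 (3.14), Eif5a (2.98), Mtap (2.41), Mat2a (1.89), Oat (1.79) and Enoph1 (1.79) led the rises. Slc3a2 (1.22), Aldh18a1 (1.18), Atp13a3 (0.90), Dhps (0.78), Dohh (0.74), Mri1 (0.51) and Apip (0.27) followed, the last of which was lost without replicate 1 or 2 (adjusted p = 0.134 and 0.0686). Atp13a2 (-1.79), Mat2b (-0.88), Paox (-0.35) and Adi1 (-0.31) were lower, with Adi1 lost without replicate 4 (adjusted p = 0.0532). Eif5a2 at -0.26 did not pass (adjusted p = 0.101). At pH 7 against pH 7.4, 7 of the 18 were lower with IL-2, beside 9.83% of all genes. Without IL-2 0 passed by edgeR, beside 1.68% of all genes. DESeq2 also called 0, and 1 (Adi1) had an unadjusted edgeR p under 0.05, with no share of all genes under these rules beside them. From pH 7 to pH 6.6 with IL-2, 14 passed (72.4% of all genes), and the interaction called 16 (67.0%). For the effect of IL-2, 15 passed at pH 7 (77.2%) and 6 at pH 6.6 (23.7%). Against 0 h, 13 passed at pH 7.4 with IL-2 (59.9%), 15 at pH 7.4 without it (75.2%), 15 at pH 6.6 with it (68.5%) and 11 at pH 6.6 without it (75.1%).

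Myc, which encodes c-Myc, was at 141.8 to 173.6 CPM at pH 7.4 with IL-2 and at 45.9 to 71.8 CPM at pH 6.6 with IL-2 (log2 fold change -1.55, SE 0.11, edgeR adjusted p = 6.35e-14). Without IL-2 it was at 13.1 to 21.7 CPM at pH 7.4 and at 20.8 to 32.5 CPM at pH 6.6 (0.69, SE 0.12, adjusted p = 6.38e-06). At pH 6.6 without IL-2, Odc1 thus reached 75.2% of its mean level at pH 7.4 with IL-2, and Myc 16.3% of its own. Srm, at 1.90% of its level, lay lower still.

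Over the 35 libraries, with the mean of each replicate number removed, the log2 CPM of Srm and Myc had a Pearson r of 0.95. The r with Myc was 0.88 for Oaz1, 0.86 for Azin1, 0.65 for Odc1 and -0.33 for Smox. Odc1 was closest to Azin1 among the members (0.86), and its r with Amd1 was 0.33. Smox had r values of 0.66 with Oaz2 and 0.64 with Sat1, but -0.17 with Odc1. Oaz2 and Sat1 went together (0.89), and each ran opposite to Azin1 (-0.91). These values describe libraries that share the 7 conditions and carry no test.

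**Figure D5:**
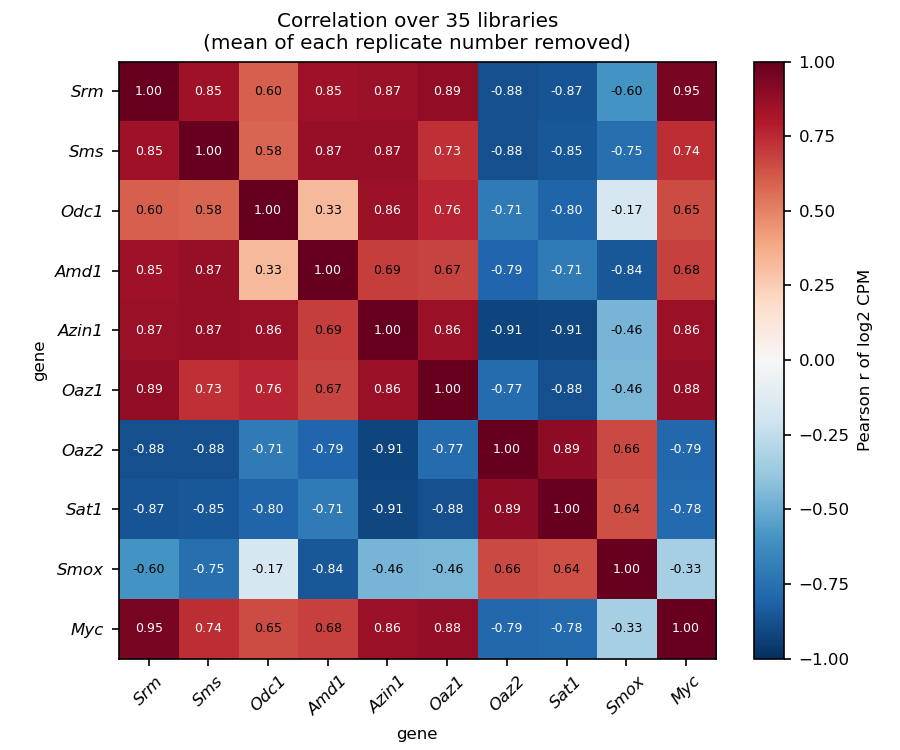
Pearson r of log2 CPM between members and Myc over 35 libraries after removal of the mean of each replicate number, on a colour scale from -1 (blue) to 1 (red). Odc1 has an r of 0.86 with Azin1, 0.33 with Amd1 and -0.17 with Smox.

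Among 9007 genes whose log2 CPM averaged 3 or more, those whose pattern was most like Srm by Pearson r were Nme1, Smyd2 and Ergic1, each at 0.99. For Azin1 they were Naa15, Eif4e and Actr2 (0.99), and for Amd1 Mrpl3, Gnpnat1 and Fam98a (0.98). Odc1 was most like Slc16a10 (0.97), an aromatic amino acid transporter, and the cell-cycle genes Plk4 and Cdt1 (0.96). For Sms they were Psip1, Myef2 and Aida (0.96 to 0.97), for Oaz1 Ndufb7, Naa10 and Otub1 (0.96 to 0.97), and for Oaz2 Hook2, Calcoco1 and Dlgap4 (0.95 to 0.97). Sat1 was most like Tmem71 (0.98), Bloc1s3 and Gmfg (0.97). Smox was most like Slc35a2 (0.97), Mxi1, which encodes an antagonist of c-Myc, and Fez2 (0.97). The 35 libraries share 7 conditions, and likeness was not tested.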

How the data were processed

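RNA from mouse CD8+ T cells, cleared of dead cells on Ficoll, was made into stranded libraries of polyadenylated RNA. The authors deposited a table per library with raw read counts for each gene. The submitters' processing notes name cutadapt 1.8, STAR 2.5.2b, HTSeq 0.6.1 and the GRCm38 build. Closing rows without a gene did not enter library sizes. They held reads aligned to several places (median 37.1% of the tally with these rows), reads matched to no counted feature (median 7.42%) and ambiguous reads (0.922%). Exon lengths, coordinates and copies were taken from GENCODE M21.

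The filterByExpr function of edgeR 4.0.16 (R 4.3.3), at a minimum count of 10, left 13819 genes. After TMM scaling, all 35 libraries entered 1 robust quasi-likelihood fit with terms for group and, as a block, for replicate number. The common biological coefficient of variation came to 0.120. Benjamini-Hochberg adjustment ran over all genes tested, with a threshold of 0.05. The block followed the study's paired tests and a check of pairing. Of 105 same-numbered pairs of libraries in different groups, 95 had deviations from their group means that correlated over 0.1 (median 0.273). Between different numbers the median was -0.0745. Deviations from a group mean sum to 0, so that value largely follows from the same-numbered pairs and adds no separate evidence. No 2 libraries of a group were alike within sampling noise (lowest chi-square per degree of freedom 6.24 over 70 pairs).

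The members and the gene lists were chosen with earlier results of these data known. The rule for named genes took every member, every tested gene of the neighbouring list in 3 comparisons, Myc, and for each member the 3 genes most alike in pattern. Alternatives were RLE scaling, DESeq2 1.42.0, looser and stricter filters, no block, only the groups compared, leaving out each replicate number, and a further minimum of 1 on the size of the log2 fold change. Intervals in the text are 95% intervals of the fitted log2 fold change. Counting reads by strand is not stated, and 5.72% of Azin1's exon bases lie opposite Gm49077.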

Additional observations from a re-analysis of the deposited data

Results flagged for a closer look

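The effect of pH 6.6 (against pH 7.4) differed between cells with and without IL-2 in 8 of the 9 members, by the interaction contrast of edgeR's quasi-likelihood test. The log2 difference, with IL-2 minus without, was -3.07 for Srm, -2.28 for Odc1, -2.00 for Azin1, -1.23 for Amd1, -0.57 for Sms and -0.55 for Oaz1. It was 1.47 for Sat1 and 0.52 for Oaz2. In the model, 67.0% of all genes tested passed the same contrast, so a difference with IL-2 was the rule across the transcriptome. For Odc1, Azin1, Oaz1 and Sat1 the effects were past the threshold in opposite directions, but that of Oaz1 without IL-2 (0.17) kept its call in 3 of 11 alternatives. No library stood apart among the 63 combinations of a member and a group examined, by a test that chance would meet in about 1 of 20.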

How the results depend on the processing

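Of 117 tests of members (9 in 13 comparisons), 21 changed their call under at least 1 alternative other than the stricter fold, and no call changed direction. With a further minimum of 1 on the size of the log2 fold change, the number of members called became 5 at pH 6.6 against pH 7.4 with IL-2 (34.4% of all genes), 0 at pH 7 against pH 7.4 with IL-2 (1.47%), 4 at pH 6.6 against pH 7 with IL-2 (27.7%) and 2 at pH 6.6 without IL-2 (20.5%). It became 5 for IL-2 at pH 7.4 (40.9%), 1 for IL-2 at pH 6.6 (3.73%) and 5 for the interaction (33.9%). Against 0 h it became 3 at pH 7.4 with IL-2 (15.1%), 4 at pH 7.4 without it (30.4%), 2 at pH 6.6 with it (22.7%) and 3 at pH 6.6 without it (32.5%). A fit of only the groups compared gave 5 in place of 2 at pH 7 with IL-2, where it called 4388 of all genes. It gave 2 in place of 0 at pH 7 without IL-2, where it called 942 of all genes. For IL-2 at pH 6.6 it gave 8 in place of 4 (5369 of 12514 genes called). For pH 6.6 with IL-2 against 0 h it gave 4 in place of 7 (7571 of 12735 genes called). DESeq2 gave 1 at pH 7 without IL-2, and the looser filter 2 for IL-2 at pH 6.6 (2562 of 25852 genes called). Leaving out each replicate number in turn gave 1 to 2 at pH 7 with IL-2 (1 without replicate 2 or 3), 0 to 1 at pH 7 without IL-2 (1 without replicate 1), 2 to 3 for IL-2 at pH 6.6 and 4 to 6 for pH 6.6 with IL-2 against 0 h. Over all genes, the count called at pH 7 without IL-2 was 232, and it ranged from 35 (without replicate 2) to 942 (only the groups compared). At pH 7 with IL-2 it was 2623, and ranged from 1283 (without replicate 3) to 4388 (only the groups compared). For IL-2 at pH 6.6 it was 3278, and 5369 with only the groups compared or 2119 without replicate 4. Without replicate 1 or 2 the share of its calls that were higher was 69.7% or 69.3%, against 55.5% of all calls with every replicate.

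Without the replicate block, 3 calls of members were lost and none gained. These were Oaz1 at pH 6.6 without IL-2 (adjusted p = 0.0785), Oaz1 at pH 7.4 with IL-2 against 0 h (0.0801) and Sat1 for IL-2 at pH 6.6 (0.0920). The count at pH 7 without IL-2 over all genes was then 56, and at pH 7 with IL-2 it was 1660.

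All changes of direction were in values that had not passed the threshold, and their cause was not tested. Leaving out each replicate number in turn gave -0.0844 to 0.00259 for Oaz1 at pH 7 with IL-2. At pH 6.6 against pH 7.4 without IL-2 it gave -0.191 to 0.0602 for Sms and -0.0772 to 0.00729 for Oaz2, and Oaz2 was 0.0175 with RLE scaling and with DESeq2. At pH 7 without IL-2 it gave -0.148 to 0.0396 for Srm, -0.0466 to 0.0174 for Oaz1 and -0.0411 to 0.0336 for Oaz2, which was -0.000466 with RLE scaling. Sat1 at pH 6.6 with IL-2 against 0 h ranged from -0.0971 to 0.235 and was -0.0194 without the replicate block. At pH 6.6 against pH 7.4 with IL-2, Adi1 ranged from -0.0460 to 0.137, and was 0.0561 with RLE scaling, 0.0562 with DESeq2, 0.0364 with the stricter filter and 0.0654 with only the groups compared. Slc3a2 ranged there from -0.0143 to 0.136. Slc7a1 at pH 6.6 without IL-2 ranged from -0.101 to 0.121.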
